A study of Mus musculus with 16 samples.

Results

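The G2 and mitosis genes described here are 54 genes whose products take a cell from the end of DNA replication through mitosis and cytokinesis. They were chosen by gene symbol as a functional set, and all 54 were found among the 20409 genes of the deposited count table. They comprise 7 kinases, 11 mitotic entry and exit factors, 9 kinesins, 9 kinetochore and checkpoint genes, 3 genes of the chromosomal passenger complex, 5 condensin genes, 2 genes of chromosome structure and 8 spindle and cytokinesis genes. All 54 passed the filter on low counts in footprints and in RNA, and the lowest deposited count of any of them was 12, for Kif20b in an RNA library.

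Neural stem cells of the adult mouse hippocampus, which divide in culture and can give rise to neurons and glia, were the material. They came from male FVB/N animals of 8 to 10 weeks (dentate gyrus), and 4 independently isolated Fmr1 KO cultures (Fmr1 -/y, lacking the X-linked gene of the RNA-binding protein FMRP) were set against 4 wild-type (WT) cultures from littermates. All cultures received EGF (20 ng/ml) and FGF2 (20 ng/ml), and all were exposed to the elongation inhibitor cycloheximide (100 µg/ml) during the last 10 min of growth. Each lysate gave a library of ribosome footprints and a library of cytoplasmic RNA, 16 libraries in all, and whether a culture came from one animal or several is not given in the sources used here.

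Mitotic entry is driven by cyclin B bound to the kinase Cdk1, with Plk1 and the Aurora kinases acting alongside it. Kinesins, kinetochores and condensin then build the spindle, attach chromosomes to it and compact them, and the anaphase-promoting complex with Cdc20 ends mitosis by marking cyclin B and securin for destruction. Most of these genes are transcribed in G2 and their mRNA is low in cells that do not divide, so that they are widely used as a signature of proliferating cells. FMRP binds mRNAs and associates with ribosomes, and the footprint libraries of this series were made to ask which mRNAs are translated differently without it.

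Libraries held 9430732 to 17220236 estimated counts in footprints and 5343042 to 6600023 in RNA. Fmr1 itself had 24.1, 27.0, 12.7 and 14.7 footprint CPM (counts scaled to library size) in KO cultures 1 to 4, against 129, 149.7, 149.4 and 148.7 in WT cultures 1 to 4, in the direction of the labels (log2 fold change of KO over WT -2.93, SE 0.22, edgeR adjusted p = 0.0140). In RNA it had 8.64, 30.9, 10.7 and 3.35 CPM in the KO cultures, against 40.9, 106.8, 37.3 and 27.4 CPM in the WT cultures, where KO culture 2 overlapped with the WT range (-1.99, SE 0.67, adjusted p = 1). Of 14 neural stem and progenitor markers, 13 exceeded 1 CPM in a library of each assay, and the exception was Prom1, which did not pass 0.372 CPM in any library. All 7 microglial markers stayed below 1 CPM in every footprint library, and 6 of 7 did in RNA. In 2 places libraries stood apart for the 54 genes, and both are described first because they bear on every comparison of the genotypes: culture 1 of the WT group in both assays, and the replicate 2 libraries in RNA.

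As a set, the G2 and mitosis genes were several-fold lower in WT culture 1 than in the other cultures. WT culture 1 was the lowest of the 8 cultures for 53 of the 54 genes in footprints and for 53 of 54 in RNA, where the same was true of 27.6% and 22.9% of all genes tested. The median gene lay -2.01 on the log2 scale from the mean of the other 3 WT cultures in footprints and -2.15 in RNA, against 0.03 and -0.01 for all genes. The mean log2 CPM of the 54 genes in footprints was 7.42, 7.42, 7.44 and 7.44 in KO cultures 1 to 4, against 5.42, 7.16, 7.37 and 7.49 in WT cultures 1 to 4. In RNA it was 6.24, 6.87, 6.43 and 6.34 in the KO cultures, against 4.35, 6.42, 6.35 and 6.37 in the WT cultures. In footprints the 4 KO cultures and WT cultures 3 and 4 thus lay within a narrow band and WT culture 2 slightly below it, while WT culture 1 was far below. Since whole lysates were sequenced, fewer cells in G2 or mitosis and less mRNA per such cell cannot be told apart.

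**Figure D1:**
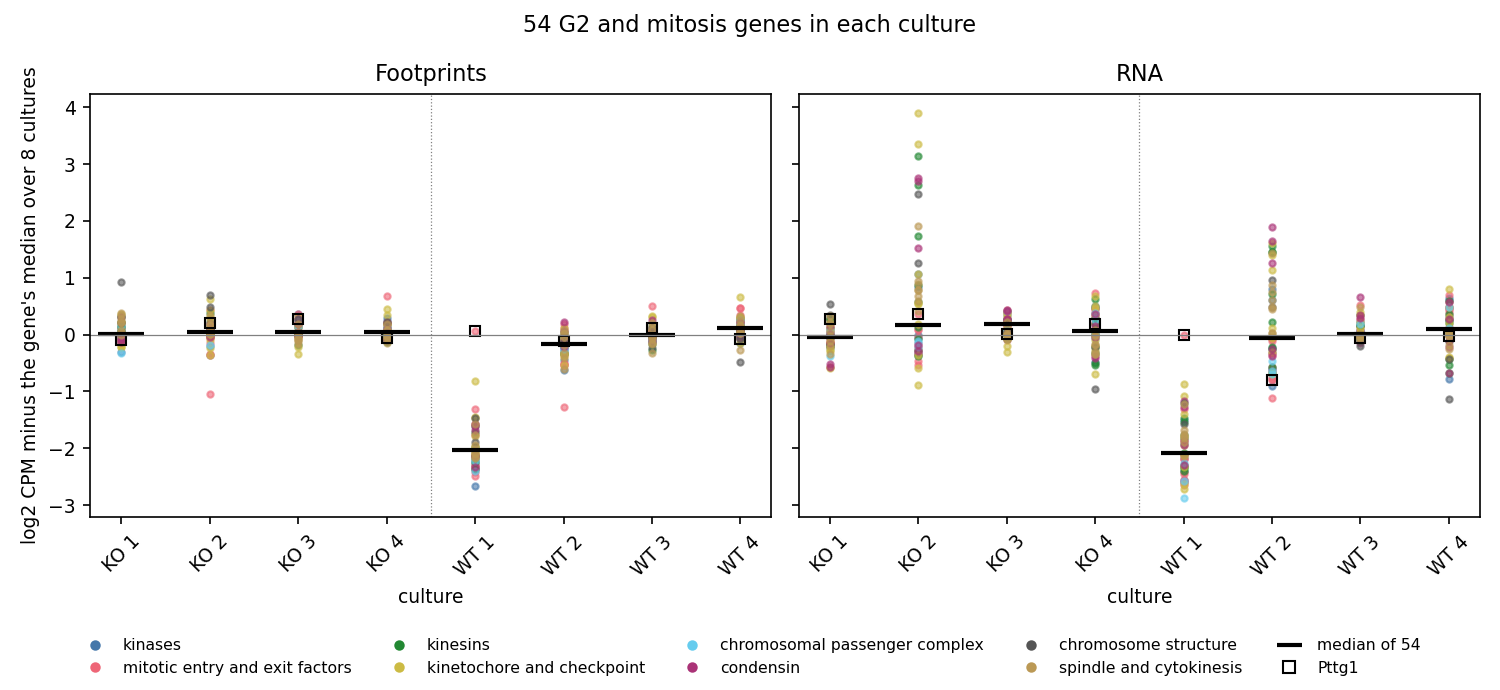
Log2 CPM of each of the 54 genes minus that gene's median over 8 cultures (y axis, log2 units), for KO cultures 1 to 4 and WT cultures 1 to 4 (x axis), with footprints on the left and RNA on the right. Points are genes coloured by role, black bars are medians of the 54 genes, and open squares mark Pttg1. The points of WT culture 1 lie far below the others except for Pttg1, and in RNA the points of KO culture 2 and WT culture 2 spread upwards.

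The reduction in WT culture 1 was seen in each role. The median gene was 4.62-fold lower in footprints and 5.43-fold lower in RNA than the mean of WT cultures 2 to 4 among the kinases. Among the entry and exit factors it was 4.24-fold lower in footprints and 4.97-fold lower in RNA and among the kinesins 4.00-fold lower in footprints and 4.67-fold lower in RNA. Among the kinetochore and checkpoint genes it was 3.99-fold lower in footprints and 3.63-fold lower in RNA, in the passenger complex 4.63-fold lower in footprints and 5.92-fold lower in RNA and in condensin 3.23-fold lower in footprints and 4.16-fold lower in RNA. The exception was Pttg1, which encodes securin, the inhibitor that holds separase inactive until anaphase. Pttg1 footprints amounted to 44.3, 54.8, 57.4 and 45.4 CPM in KO cultures 1 to 4, against 49.8, 43.9, 51.8 and 44.8 CPM in WT cultures 1 to 4. The RNA values of Pttg1 were 20, 21.2, 16.6 and 18.9 CPM in the KO cultures, against 16.5, 9.53, 15.8 and 16.3 CPM in the WT cultures. Pttg1 in WT culture 1 thus lay within the range of the other cultures in footprints and in RNA. Of the other 53 genes, the smallest reduction in footprints was that of Bub3, a protein of the spindle checkpoint, which in WT culture 1 was at 55.7% of the mean of the other WT cultures. Cdc25b, the phosphatase that starts the activation of Cdk1, was at 45.6% in footprints. In RNA the largest reduction was that of Cenpe, to 10.1% of the mean of WT cultures 2 to 4. That mean was raised by WT culture 2, with 51.5 CPM against 17.3 and 12.8 in WT cultures 3 and 4. The Cenpe value of WT culture 1 rests on a count of 14. Across the 54 genes, the shift of WT culture 1 in footprints and that in RNA had a Pearson r of 0.849 and a Spearman rho of 0.741, as a description over genes that share the same libraries.

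Markers of astrocytes, into which neural stem cells can differentiate, were higher in WT culture 1 than in the other WT cultures. The 8 astrocyte markers summed to 2989, 3125, 2027 and 1503 footprint CPM in KO cultures 1 to 4, against 3248, 1422, 578 and 566 in WT cultures 1 to 4. In RNA their sums were 2098, 2158, 1222 and 850 CPM in the KO cultures, against 2183, 882, 481 and 474 in the WT cultures. WT culture 1 was the highest of the WT cultures for 7 of the 8 markers in both assays, and the highest of all 8 cultures for 4 in footprints and 5 in RNA, and 0 of the 8 stayed below 1 CPM in every library of an assay. KO cultures 1 and 2 had astrocyte sums close to that of WT culture 1, with mitotic genes at the level of the other cultures. The 14 neural stem and progenitor markers summed to 8110 to 11760 footprint CPM in the KO cultures, against 14500 in WT culture 1 and 10650 to 11530 in the other WT cultures. The 10 oligodendrocyte lineage markers summed to 1556 to 2076 footprint CPM in the KO cultures, against 2786 in WT culture 1 and 1366 to 2056 in the other WT cultures. In RNA these sums were 1284 to 1886 CPM in the KO cultures, against 2159 in WT culture 1 and 1388 to 1797 in the other WT cultures. WT culture 1 was the highest of the WT cultures for 7 of the 10 in footprints and 4 in RNA, and 3 and 2 of the 10 stayed below 1 CPM in every library of the assay. The 12 neuroblast and neuron markers summed to 996 to 1324 footprint CPM in the KO cultures, against 2092 in WT culture 1 and 1214 to 1499 in the other WT cultures. In RNA their sums were 319.5 to 718 CPM in the KO cultures, against 944 in WT culture 1 and 287 to 758 in the other WT cultures. WT culture 1 was the highest of the WT cultures for 3 of these 12 in footprints and 4 in RNA, and 1 of the 12 stayed below 1 CPM in every library of either assay. Summed levels of all 4 lists were thus highest of the 8 cultures in WT culture 1. A sum weights the most abundant markers, and in mean log2 CPM the neuroblast and neuron markers did not follow it. Their footprint mean was 1.40 in WT culture 1, 2.11 to 2.18 in the other WT cultures and 1.03 to 3.74 in the KO cultures. Their RNA mean was 1.85 in WT culture 1, 0.89 to 2.96 in the other WT cultures and 0.78 to 1.79 in the KO cultures. For the other lists the mean log2 CPM was also highest in WT culture 1. The 37 S phase genes were also low in WT culture 1, with a mean log2 CPM in footprints of 6.60 to 7.05 in the KO cultures, against 5.14 in WT culture 1 and 6.54 to 7.10 in the other WT cultures. The part of these cell types in the result was not tested.

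The replicate 2 libraries differed in another way, seen in RNA, where many of the longer genes of the set were high. Cenpf, a very long kinetochore-associated protein, had 33.4, 601, 46.2 and 35 RNA CPM in KO cultures 1 to 4, against 22, 106, 51.3 and 30.1 in WT cultures 1 to 4. KO culture 2 was many times the other KO cultures, and WT culture 2 was the highest of the WT cultures. In footprints Cenpf had 587, 929, 473 and 668 CPM in the KO cultures, against 218, 583, 629.9 and 618 CPM in the WT cultures, where KO culture 2 was again the highest but by far less. Cenpe, the long kinesin that tethers microtubules to kinetochores, had 16.6, 174, 22.5 and 10.5 RNA CPM in KO cultures 1 to 4, against 2.75, 51.5, 17.3 and 12.8 in WT cultures 1 to 4. Cenpe footprints amounted to 310.0, 323, 243 and 224 CPM in KO cultures 1 to 4, against 69.6, 259, 237 and 217 CPM in WT cultures 1 to 4. In footprints of Cenpe only WT culture 1 stood apart. Of the 54 genes, 21 had both replicate 2 libraries as their highest in RNA (14.8% of all genes), against 2 in footprints (5.78% of all genes). With length taken as counts per TPM relative to the median gene of the 54, the log2 difference of replicate 2 from the other cultures had a Pearson r of 0.657 and a Spearman rho of 0.675 with log2 length in RNA, and 0.576 and 0.601 in footprints (54 genes, a description only). The size of the shift differed: it reached 2.71 for Cenpf in RNA and 0.32 in footprints, both on the log2 scale. Espl1, at 2.85 times the length of the median gene, did not follow this pattern in RNA (-0.47). Nor did others, among them Bub1b (length 1.45, -0.27), Kif20a (1.23, -0.14) and Kif18b (1.14, -0.58). Kif18a (1.23, 2.12) and Ndc80 (0.87, 1.22) were high at similar or shorter length, so that length alone did not set the shift apart. The cause of this difference was not tested.

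**Figure D2:**
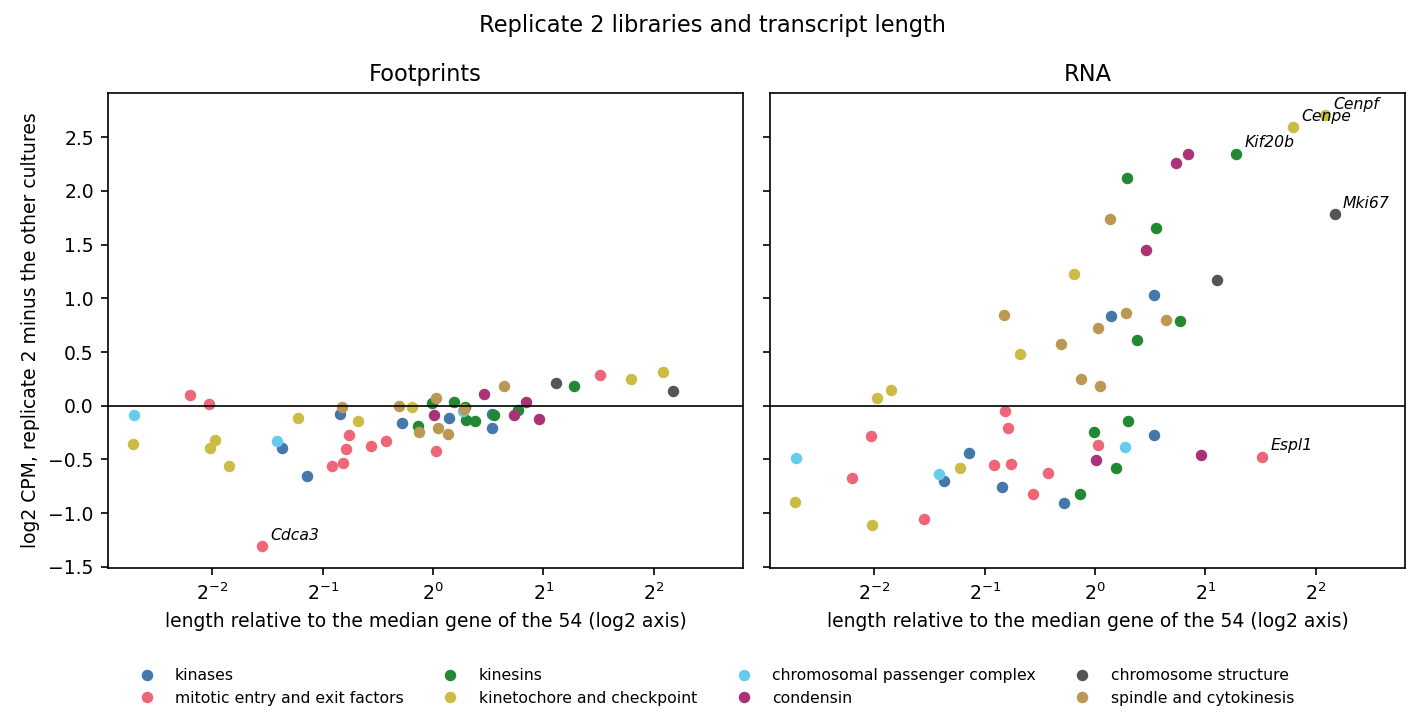
Mean log2 CPM of the 2 replicate 2 libraries minus that of the other cultures without WT culture 1 (y axis) against length relative to the median gene of the 54 (x axis, log2 scale), for footprints on the left and RNA on the right. Points are genes coloured by role. In RNA the long genes Cenpf, Cenpe and Kif20b lie above 2, and in footprints the same genes lie below 0.5.

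No gene of the 54 differed between KO and WT by the test, although all 54 had a higher fitted level in KO. In footprints 0 of 54 genes passed an adjusted p of 0.05 in edgeR's quasi-likelihood test, against 0.0349% of the 11472 genes tested (0.0262% higher and 0.00872% lower), and 2 had an unadjusted p below 0.05. DESeq2 and limma-voom also called 0, each with 2 genes at an unadjusted p below 0.05. Over all genes in footprints, 527 had an unadjusted p below 0.05 in edgeR, 656 in DESeq2 and 571 in limma-voom. The median log2 fold change was 0.45 (median SE 0.38) over the 54 genes and 0.01 over all genes. In RNA 0 of 54 genes passed, against 0.00901% of the 11097 genes tested. Of the 54, 0 had an unadjusted p below 0.05 in edgeR or limma-voom and 1 in DESeq2. Over all genes in RNA, 208 did in edgeR, 277 in DESeq2 and 215 in limma-voom. The median log2 fold change in RNA was 0.38 (median SE 0.48) over the 54 genes and 0.01 over all genes. By role, the median log2 fold changes in footprints and in RNA were 0.47 and 0.39 for the kinases, 0.46 and 0.37 for the entry and exit factors, 0.47 and 0.42 for the kinesins, 0.38 and 0.27 for the kinetochore and checkpoint genes, 0.48 and 0.49 for the passenger complex, 0.38 and 0.35 for condensin, 0.75 and 0.97 for chromosome structure and 0.47 and 0.36 for the spindle and cytokinesis genes. Positive fold changes in 54 of 54 genes stand beside 51.2% of all genes in footprints and 51.3% in RNA, and they share the libraries of WT culture 1.

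Without WT culture 1 the difference became smaller. The median log2 fold change became 0.11 in footprints, positive for 45 of 54 genes (51.6% of all genes). In RNA it became 0.06, positive for 37 of 54 (50.2% of all genes). Compared within pairs of the same replicate number, the median log2 difference of KO minus WT in footprints was 2.13 in pair 1, 0.25 in pair 2, 0.10 in pair 3 and -0.07 in pair 4. In RNA the same medians were 2.03, 0.31, 0.11 and -0.06. KO was the higher of the pair for 53, 49, 40 and 20 of the 54 genes in footprints in pairs 1 to 4. The same was true of 49.9%, 52.7%, 51.8% and 50.3% of all genes. In RNA it was the higher for 54, 49, 34 and 20 of the 54, against 51.4%, 54%, 50.3% and 50.1% of all genes. The footprint libraries of replicates 1 and 2 carry molecular identifiers of 5 nt and those of replicates 3 and 4 of 8 nt. Within replicates 3 and 4 the medians were -0.0028 in footprints and -0.0014 in RNA, and within replicates 1 and 2, which hold WT culture 1, they were 0.90 and 0.89. In an edgeR fit blocked on replicate number, 0 of 54 genes passed in either assay. An unadjusted p below 0.05 was reached by 1 in footprints (Cdc25b) and 5 in RNA (Mki67, Cdc25b, Smc4, Kif20b and Bub1). Over all genes, 663 of 11472 in footprints and 708 of 11097 in RNA reached it. The median log2 fold changes of the 54 genes were 0.56 in footprints and 0.56 in RNA. Without pair 1 these were 0.10 and 0.10.

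**Figure D3:**
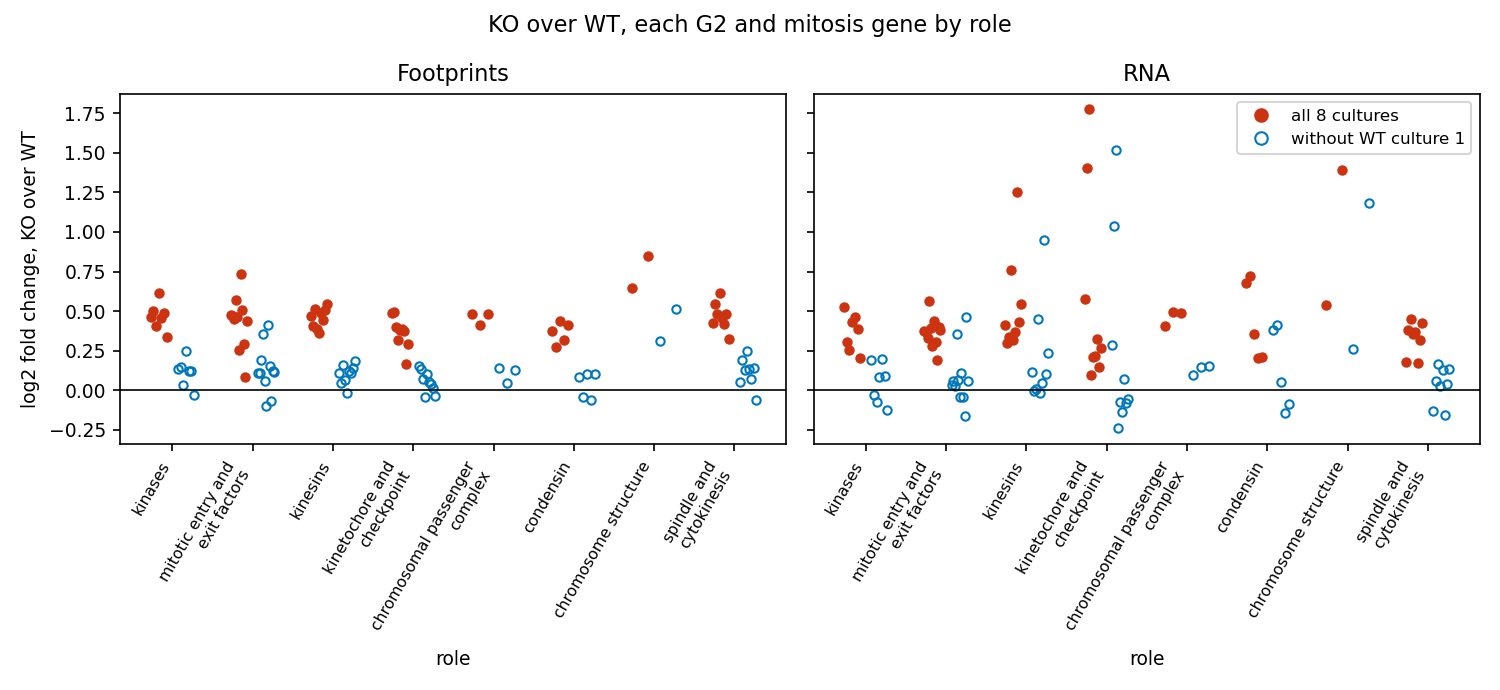
Log2 fold change of KO over WT for each of the 54 genes (y axis) by role (x axis), for footprints on the left and RNA on the right. Filled red points use all 8 cultures and open blue points leave out WT culture 1. All filled points lie above 0. The open points have medians of 0.11 in footprints (45 of 54 above 0) and 0.06 in RNA (37 of 54 above 0). Open points of a few long genes in RNA lie well above the rest.

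Few genes kept KO and WT apart in every culture. In footprints the KO range lay wholly above the WT range for 2 of the 54 genes, against 1.04% of all genes, and in RNA for 1, against 0.703%. The KO range lay wholly below the WT range for 0 of the 54 genes, against 0.846% of all genes in footprints and 0.577% in RNA. The footprint genes were Cdc25b and Top2a, the topoisomerase that untangles sister chromatids. The footprint values of Cdc25b were 48.7, 44.9, 50.9 and 49.1 CPM in the KO cultures, against 17.9, 31.1, 43 and 43.9 CPM in the WT cultures. The KO cultures were alike, the WT cultures were spread, and the highest WT culture reached almost the lowest KO culture. The fold change of Cdc25b was 0.57 (SE 0.22, unadjusted p = 0.0306, edgeR adjusted p = 0.999). Without WT culture 1 it was 0.36 (SE 0.12, unadjusted p = 0.0209, adjusted p = 0.805). In RNA the gene was Pttg1, with the values given above and a log2 fold change of 0.40 (SE 0.26, edgeR adjusted p = 1).

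Mki67 and Top2a, which coat and untangle mitotic chromosomes, had the largest footprint fold changes beside Cdca3. Mki67, the gene of the proliferation marker Ki-67, had 1198, 1021, 767 and 584 footprint CPM in KO cultures 1 to 4, against 229.6, 578, 687 and 455 in WT cultures 1 to 4. KO cultures 1 to 3 were above every WT culture, KO culture 4 was not, and the groups overlapped. Its log2 fold change in footprints was 0.85 (SE 0.37, unadjusted p = 0.0498, edgeR adjusted p = 0.999), and 0.51 (SE 0.22) without WT culture 1. In RNA Mki67 had 217, 832, 156 and 77.7 CPM in the KO cultures, against 65.4, 210.4, 145 and 68.4 CPM in the WT cultures. KO culture 2 was far above the rest, and without it the log2 fold change in RNA was 0.30 (SE 0.49), against 1.39 (SE 0.71) with it and 1.00 (SE 0.37, adjusted p = 0.765) with the replicate block. Top2a footprints amounted to 1376, 1672, 1199 and 1383 CPM in KO cultures 1 to 4, against 322, 1181, 1011 and 1131 CPM in WT cultures 1 to 4. All 4 KO cultures were above all 4 WT cultures, by a narrow gap, with a log2 fold change of 0.64 (SE 0.37, edgeR adjusted p = 0.999) and, without WT culture 1, of 0.31 (SE 0.11, adjusted p = 0.852). The RNA values of Top2a were 456, 868, 413 and 309 CPM in the KO cultures, against 122, 699.9, 316 and 269 CPM in the WT cultures. In RNA both replicate 2 libraries of Top2a were high and the groups overlapped.

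No gene of the 54 differed between the genotypes in footprints relative to RNA by the test. Translation efficiency (TE), the change of footprints beyond that of RNA in one model over both kinds of library, passed the test for 0 of 54 genes, against 0% of the 10863 genes tested. By edgeR, DESeq2 and limma-voom 0 of the 54 had an unadjusted p below 0.05, where 14 of all genes did in edgeR, 24 in DESeq2 and 20 in limma-voom. The median log2 TE change was 0.08 (median SE 0.69) over the 54 genes, against 0.01 over all genes. Of the 54, 39 were positive and 15 negative, where 53.07% of all genes were positive. The most negative were Cenpf (-1.37, SE 1.18), Cenpe (-0.91, SE 1.2) and Kif20b (-0.80, SE 1.04), long genes with the high RNA value in KO culture 2. Without KO culture 2 their TE changes turned to 0.61 (SE 0.68), 0.76 (SE 0.98) and 0.71 (SE 0.78). WT culture 2, the highest WT culture in RNA of these genes, stayed in that fit. With the replicate block their TE changes were -0.33 (SE 0.62), -0.42 (SE 0.68) and -0.35 (SE 0.56). The most positive were Cdca3 (0.30, SE 0.73), Hmmr (0.26, SE 0.87) and Ect2 (0.25, SE 0.71), each smaller than its error.

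Within every culture, however, the median of the 54 genes was high in footprints relative to RNA. Footprints were compared with RNA of the same lysate with the culture as a block, and the 2 assays were scaled separately. The library kits of the assays differ, so that a ratio is not a pure translation efficiency. A value given as above or below the median of all genes is the log2 ratio minus that median (-0.15), while the test and each fitted log2 ratio printed with its SE are before that subtraction. The median gene was 0.98 above the median of all genes on the log2 scale, with 45 of 54 genes above it. Of the 54, 50 passed an adjusted p of 0.05, against 80.8% of the 10863 genes tested; 41 were higher in footprints (35.5% of all genes) and 9 were lower (45.3%). The median of the 54 genes minus that of all genes was 1.09, 0.86, 0.95 and 1.09 in KO cultures 1 to 4, against 1.08, 0.92, 1.09 and 1.09 in WT cultures 1 to 4. WT culture 1, where both kinds of library were low, had a ratio within the range of the other cultures. Medians of single roles varied more between cultures. In KO cultures 1 to 4 that of condensin was 2.74, 0.83, 2.12 and 2.16 above all genes. In WT cultures 1 to 4 it was 2.11, 1.05, 1.91 and 2.35. It was thus lowest in both replicate 2 cultures, where that of the kinases was highest (0.67 in KO and 0.94 in WT). Across the 54 genes the log2 ratio had a Pearson r of 0.20 and a Spearman rho of 0.227 with log2 length, as a description.

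**Figure D4:**
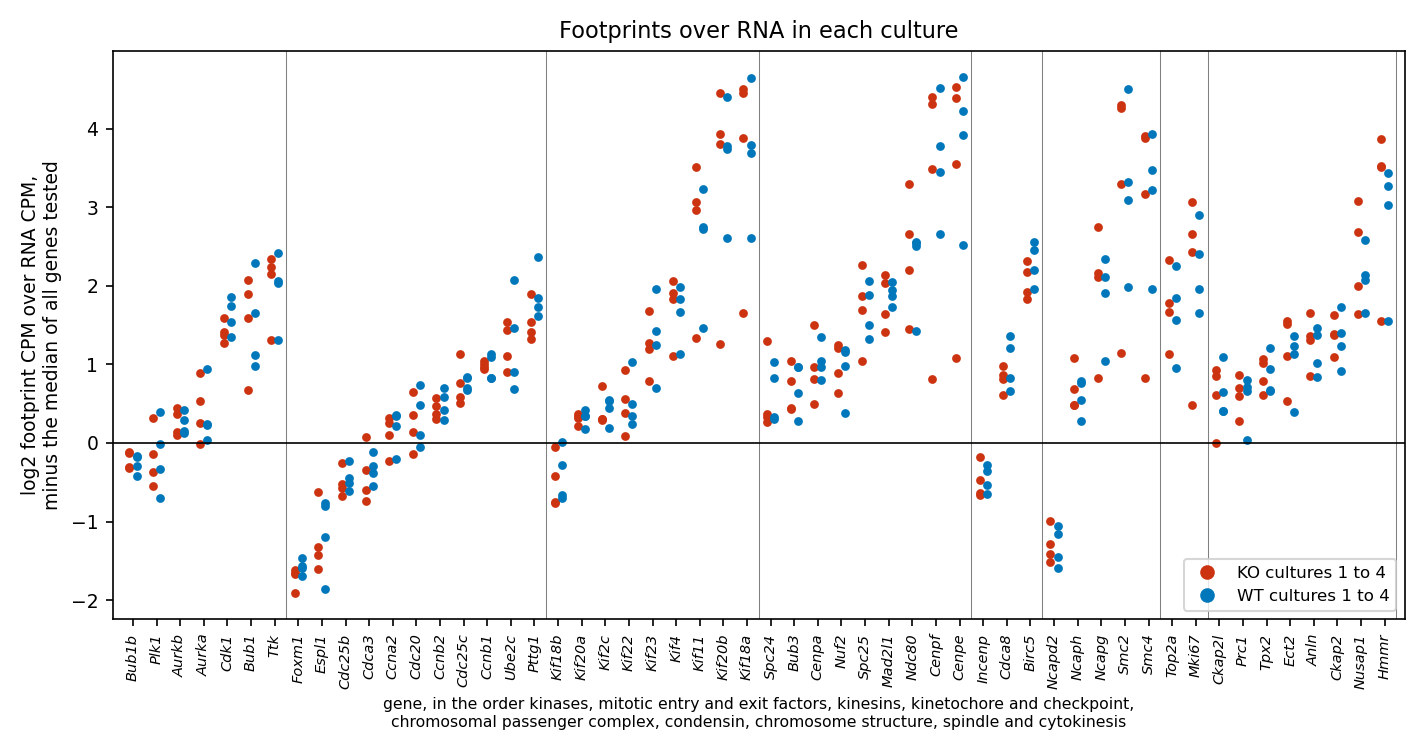
Log2 ratio of footprint CPM to RNA CPM minus the median of all genes tested (y axis) for each of the 54 genes (x axis), grouped by role with grey lines between the roles. Red points are KO cultures 1 to 4 and blue points WT cultures 1 to 4. Foxm1, Espl1 and Ncapd2 lie below -0.5 in every culture, and Kif18a, Kif20b, Cenpf, Cenpe, Smc2 and Smc4 reach 4 or close to it in some cultures.

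The kinases spanned a moderate range. Cdk1, the kinase whose activation starts mitosis, had 352, 337, 493 and 472 footprint CPM in KO cultures 1 to 4, against 80.9, 323, 425 and 438 in WT cultures 1 to 4. WT culture 1 was far below the lowest KO culture, and the other WT cultures overlapped with the KO cultures. In RNA Cdk1 had 150.4, 127, 208 and 218 CPM in the KO cultures, against 26.7, 102, 164 and 195 CPM in the WT cultures. The KO over WT fold change of Cdk1 was 0.47 (SE 0.37, edgeR adjusted p = 0.999) in footprints, and 0.53 (SE 0.50, edgeR adjusted p = 1) in RNA. Its footprints were 1.50 above the median ratio of all genes (edgeR adjusted p = 6.58e-09). Plk1, the polo-like kinase of centrosome maturation and checkpoint recovery, had 194, 245, 243 and 248 footprint CPM in KO cultures 1 to 4, against 48.2, 175, 241 and 239 in WT cultures 1 to 4. KO culture 1 was lower than the other KO cultures and within the WT range, while the other KO cultures lay just above WT cultures 3 and 4. Plk1 RNA amounted to 244, 224, 344 and 405 CPM in KO cultures 1 to 4, against 54.2, 153, 339.5 and 439 CPM in WT cultures 1 to 4. The fold changes of Plk1 were 0.50 (SE 0.38, edgeR adjusted p = 0.999) in footprints, and 0.30 (SE 0.54, edgeR adjusted p = 1) in RNA. Of the 7 kinases, 3 were higher in footprints than in RNA by the test, namely Cdk1 and the checkpoint kinases Bub1 and Ttk. Another 2 were lower (Plk1 and Bub1b), and Aurka and Aurkb did not pass. Of all genes, 35.5% were higher and 45.3% lower by the same test. The ratio of Ttk was the highest of the kinases, at 1.98 above the median of all genes.

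The entry and exit factors included the highest RNA level per length of the 54 genes and had the lowest median footprint ratio of the 8 roles, 0.26 above the median of all genes. Ube2c, the ubiquitin-conjugating enzyme of the anaphase-promoting complex, had 360, 372, 492 and 435 TPM in RNA of KO cultures 1 to 4, against 75, 323, 453 and 574 TPM in WT cultures 1 to 4. The footprint values of Ube2c were 249, 262, 272 and 268 CPM in the KO cultures, against 51.6, 302, 244 and 279.9 CPM in the WT cultures. WT cultures 2 and 4 were above every KO culture, and the fold change in footprints was 0.29 (SE 0.45, edgeR adjusted p = 0.999), turning to -0.07 without WT culture 1. Ccna2, the cyclin A of S phase and G2, had 294, 236, 343 and 317 footprint CPM in KO cultures 1 to 4, against 56.4, 212, 306 and 368 in WT cultures 1 to 4. In RNA Ccna2 had 269.9, 314, 351 and 298 CPM in the KO cultures, against 49.3, 281, 296 and 325 CPM in the WT cultures. Apart from WT culture 1 the genotypes overlapped in both assays. The Ccna2 fold changes were 0.47 (SE 0.40, edgeR adjusted p = 0.999) in footprints, and 0.37 (SE 0.47, edgeR adjusted p = 1) in RNA.

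Foxm1, the transcription factor that switches on many genes of this set, had the lowest footprint ratio of the 54. Foxm1 footprints amounted to 58.9, 45, 66.9 and 56.7 CPM in KO cultures 1 to 4, against 13.2, 50.9, 60.6 and 79.7 CPM in WT cultures 1 to 4. The RNA values of Foxm1 were 206, 162, 234 and 239 CPM in the KO cultures, against 43.6, 190.3, 187 and 272 CPM in the WT cultures. Footprints were below RNA in all 8 cultures, with a fitted log2 ratio of -1.82 (SE 0.07, edgeR adjusted p = 2.06e-10), or -1.67 relative to all genes. Espl1, the protease separase that cuts cohesin at anaphase, had the third lowest fitted log2 ratio, -1.37 (SE 0.13, adjusted p = 8.81e-07). Securin (Pttg1), its inhibitor, had a fitted log2 ratio of 1.56 (SE 0.12, adjusted p = 7.87e-08), the highest of the 11 factors. Cdca3, which promotes mitotic entry, had 119, 49.5, 131 and 98.9 footprint CPM in KO cultures 1 to 4, against 20.7, 42.3, 105 and 116 in WT cultures 1 to 4. Both replicate 2 cultures were low in footprints of Cdca3. Its footprint fold change of KO over WT was 0.73 (SE 0.40, edgeR adjusted p = 0.999).

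The kinesins were mostly high in footprints relative to RNA. Of the 9, 8 were higher by the test, against 35.5% of all genes. Their ratios ran from 0.30 above the median of all genes for Kif20a to 3.61 for Kif18a. Kif20a carries the passenger complex to the central spindle, and Kif18a dampens chromosome movements at the metaphase plate. Kif18b, which shortens astral microtubules, was the one below the median of all genes (-0.47). In footprints Kif18a had 148, 141, 131 and 134 CPM in the KO cultures, against 40.5, 129, 123 and 143 CPM in the WT cultures. Kif18a RNA amounted to 7.11, 50.8, 9.44 and 6.55 CPM in KO cultures 1 to 4, against 2.95, 24, 10.4 and 6.11 CPM in WT cultures 1 to 4. In RNA Kif18a was below 11 CPM in 6 of the 8 cultures and higher in both replicate 2 libraries, whereas in footprints it was low in WT culture 1 and even in the rest. The fitted log2 ratio of Kif18a was 3.46 (SE 0.33, edgeR adjusted p = 7.46e-07). Kif20b, which acts in cytokinesis, had 6.09, 60.1, 6.84 and 6.86 RNA CPM in KO cultures 1 to 4, against 2.36, 18.8, 7.59 and 4.70 in WT cultures 1 to 4. The footprint values of Kif20b were 123, 127, 99 and 89.3 CPM in the KO cultures, against 32.1, 101, 96.7 and 93.7 CPM in the WT cultures. Its RNA in KO culture 2 stood apart, and its footprints in that culture did not.

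Kif20a and Kif22 had the highest RNA levels per length of the kinesins. Kif20a had 277, 306, 299 and 299 footprint CPM in KO cultures 1 to 4, against 62.2, 236, 289 and 306 in WT cultures 1 to 4. In RNA Kif20a had 249, 279, 253 and 288 CPM in the KO cultures, against 51.9, 214, 256 and 306 CPM in the WT cultures. The fold changes of Kif20a were 0.49 (SE 0.39, edgeR adjusted p = 0.999) in footprints, and 0.37 (SE 0.44, edgeR adjusted p = 1) in RNA. WT culture 1 lay far below the KO cultures, WT culture 2 somewhat below and the other 2 among or above them. Kif22, a chromokinesin that pushes chromosome arms towards the spindle equator, had 224, 227, 248 and 257 footprint CPM in KO cultures 1 to 4, against 44, 194, 200.2 and 275 in WT cultures 1 to 4. WT cultures 1 to 3 lay below the KO cultures and WT culture 4 above them. Its fold changes were 0.50 (SE 0.42, edgeR adjusted p = 0.999) in footprints, and 0.43 (SE 0.51, edgeR adjusted p = 1) in RNA.

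All 9 kinetochore and checkpoint genes were higher in footprints than in RNA by the test, against 35.5% of all genes. The range ran from 0.56 above the median of all genes for Spc24 to 3.56 for Cenpe, with a median of 1.71. Cenpa, the histone H3 variant that marks centromeres, had 60.2, 56.6, 71.8 and 68.6 footprint CPM in KO cultures 1 to 4, against 14.1, 47.7, 60.6 and 73.7 in WT cultures 1 to 4. Cenpa RNA amounted to 34.9, 22.6, 44.6 and 54.4 CPM in KO cultures 1 to 4, against 8.84, 21.2, 32.8 and 42.1 CPM in WT cultures 1 to 4. WT culture 4 was above every KO culture in footprints of Cenpa, and the fold changes were 0.49 (SE 0.36, edgeR adjusted p = 0.999) in footprints, and 0.57 (SE 0.46, edgeR adjusted p = 1) in RNA. Bub3 had 208, 227, 243 and 269.9 footprint CPM in KO cultures 1 to 4, against 134, 221, 258 and 240.4 in WT cultures 1 to 4. The RNA values of Bub3 were 138, 125, 198 and 221 CPM in the KO cultures, against 75.8, 129.6, 187 and 224 CPM in the WT cultures. WT culture 1 was the lowest for Bub3 in both assays. The fold changes of Bub3 were 0.17 (SE 0.17, edgeR adjusted p = 0.999) in footprints, and 0.14 (SE 0.35, edgeR adjusted p = 1) in RNA.

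The 4 subunits of the Ndc80 complex, which binds spindle microtubules at the outer kinetochore, were closer to each other in footprints than in RNA. In TPM, which is per length, the ratio of the most to the least abundant subunit within a culture was 1.88 to 3.39 in footprints and 2.90 to 12.4 in RNA. Ndc80 itself had 64, 54, 49 and 50 TPM in footprints of KO cultures 1 to 4, against 15, 55, 49 and 53 TPM in WT cultures 1 to 4. In RNA it had 8, 28, 13 and 9 TPM in the KO cultures, against 3, 31, 11 and 11 TPM in the WT cultures. The replicate 2 libraries were again the highest for Ndc80 in RNA. Spc24, a short subunit, had 57, 63, 75 and 80 TPM in footprints of the KO cultures, against 17, 51, 61 and 91 TPM in the WT cultures. Its RNA was at 79, 49, 100 and 112 TPM in the KO cultures, against 14, 61, 85 and 128 TPM in the WT cultures, where the replicate 2 libraries were low instead. No test was made of this difference in spread.

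The genes of the chromosomal passenger complex lay further apart in footprints than in RNA, also without a test. The complex holds the kinase Aurkb with the scaffold Incenp, survivin (Birc5) and borealin (Cdca8), and the ratio of the most to the least abundant of these 4 within a culture was 3.31 to 4.53 in footprint TPM and 1.51 to 2.32 in RNA TPM. Birc5 had 62.5, 83.5, 93.9 and 77.2 footprint CPM in KO cultures 1 to 4, against 15, 67.9, 80.4 and 89.5 in WT cultures 1 to 4. In RNA Birc5 had 15.6, 18.8, 26.9 and 24.1 CPM in the KO cultures, against 2.75, 12.9, 22.9 and 21.8 CPM in the WT cultures. Footprints of Birc5 were 2.17 above the median ratio of all genes (edgeR adjusted p = 1.87e-09). Incenp had 161, 185, 170.2 and 181 footprint CPM in KO cultures 1 to 4, against 41.1, 145, 157 and 179 in WT cultures 1 to 4. Incenp RNA amounted to 284, 239, 295 and 281 CPM in KO cultures 1 to 4, against 58.5, 202, 277 and 291 CPM in WT cultures 1 to 4. Footprints of Incenp were below RNA in all 8 cultures and 0.49 below the median of all genes (fitted log2 ratio -0.64, SE 0.07, adjusted p = 4.18e-06). Cdca8 had 222, 176, 223 and 219 footprint CPM in KO cultures 1 to 4, against 42.9, 169, 185 and 241 in WT cultures 1 to 4, with a ratio 0.90 above the median. The KO over WT fold changes in footprints were 0.48 (SE 0.37) for Incenp, 0.41 (SE 0.42) for Birc5 and 0.48 (SE 0.40) for Cdca8, with an edgeR adjusted p of 0.999 for each. In RNA they were 0.41 (SE 0.42), 0.50 (SE 0.53) and 0.49 (SE 0.50), with an adjusted p of 1 for each.

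Condensin had the widest range of footprint ratios among the 8 roles. Its SMC subunits Smc2 and Smc4 form the ring that compacts chromosomes, and Ncapd2, Ncapg and Ncaph are the further subunits of condensin I. The footprint values of Smc2 were 283, 292, 276 and 303 CPM in the KO cultures, against 94.5, 249.9, 279.6 and 296 CPM in the WT cultures. In RNA Smc2 had 16.1, 149.9, 30.6 and 17.4 CPM in the KO cultures, against 10.2, 72.1, 36.6 and 14.4 CPM in the WT cultures. Footprints of Smc2 were even apart from WT culture 1, whereas its RNA was several times higher in both replicate 2 libraries than in the rest. Smc4 had 317, 249.9, 265 and 244 footprint CPM in KO cultures 1 to 4, against 84.5, 299, 237 and 279.7 in WT cultures 1 to 4. Smc4 RNA amounted to 23.9, 160.5, 31.9 and 18.3 CPM in KO cultures 1 to 4, against 9.82, 88.2, 23.6 and 20.4 CPM in WT cultures 1 to 4. The fitted log2 ratios of footprints to RNA were 3.06 (SE 0.36) for Smc2 and 2.89 (SE 0.34) for Smc4, with edgeR adjusted p-values of 5.73e-06 and 5.46e-06. Without KO culture 2 these ratios were 3.37 (SE 0.27) and 3.21 (SE 0.22).

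Ncapd2 stood at the other end of condensin. It had 241, 275, 319 and 303 footprint CPM in KO cultures 1 to 4, against 60.4, 249, 255 and 310.4 in WT cultures 1 to 4. The RNA values of Ncapd2 were 786, 623, 855 and 907 CPM in the KO cultures, against 184, 597, 639.7 and 1060 CPM in the WT cultures. Footprints were below RNA in all 8 cultures (fitted log2 ratio -1.48, SE 0.08, edgeR adjusted p = 5.28e-09), the second lowest of the 54 genes. Ncapg had 116, 130.2, 119 and 113 footprint CPM in KO cultures 1 to 4, against 23.9, 125, 124 and 122 in WT cultures 1 to 4. In RNA Ncapg had 19.5, 83, 29.8 and 28 CPM in the KO cultures, against 5.89, 69.5, 36.8 and 26.8 CPM in the WT cultures. Footprints of Ncapg were even apart from WT culture 1, and the replicate 2 libraries were its highest in RNA. Ncaph had 184, 221, 222 and 200.5 footprint CPM in KO cultures 1 to 4, against 60.9, 168, 232 and 190.0 in WT cultures 1 to 4. Ncaph RNA amounted to 130.5, 118, 174 and 161 CPM in KO cultures 1 to 4, against 39.7, 112, 178 and 176 CPM in WT cultures 1 to 4. For Ncaph the replicate 2 libraries were the lowest in RNA apart from WT culture 1. In TPM, the 5 subunits within a culture differed by 1.84 to 3.5 times in footprints and by 5.23 to 71.3 times in RNA, and the 2 lowest of these RNA ratios were those of the replicate 2 libraries. The deposited TPM values are whole numbers, so that the ratios over subunits at a few TPM are coarse. The KO over WT fold changes of the 5 genes in footprints ran from 0.27 to 0.44 and in RNA from 0.20 to 0.72, and none passed the test. Without KO culture 2 the RNA fold changes of Smc2, Smc4 and Ncapg were -0.64, -0.52 and -0.43. WT culture 2, also high in RNA of these genes, stayed in that fit. Without WT culture 2 instead they were 1.39, 1.71 and 0.79, and with the replicate block 0.43, 0.60 and 0.36.

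The 8 spindle and cytokinesis genes were all higher in footprints than in RNA by the test, against 35.5% of all genes. Their ratios ran from 0.56 above the median of all genes for Prc1 to 2.96 for Hmmr. Prc1, which bundles the microtubules of the central spindle, had 317, 334, 253 and 312 footprint CPM in KO cultures 1 to 4, against 71.4, 243, 270.0 and 280.2 in WT cultures 1 to 4. The RNA values of Prc1 were 223, 314, 184 and 192 CPM in the KO cultures, against 45.6, 273, 184 and 199 CPM in the WT cultures. Replicate 2 was the highest in RNA of Prc1 in both genotypes. Its fold changes were 0.55 (SE 0.38, edgeR adjusted p = 0.999) in footprints, and 0.38 (SE 0.45, edgeR adjusted p = 1) in RNA. Tpx2, which activates Aurka on the spindle, had 425, 432, 442 and 451 footprint CPM in KO cultures 1 to 4, against 96.6, 340.5, 414 and 483 in WT cultures 1 to 4. In RNA Tpx2 had 281, 321, 239 and 239.5 CPM in the KO cultures, against 67.8, 246, 241 and 236 CPM in the WT cultures. WT culture 4 was the highest of all cultures in footprints of Tpx2, and the fold changes were 0.48 (SE 0.38, edgeR adjusted p = 0.999) in footprints, and 0.45 (SE 0.37, edgeR adjusted p = 1) in RNA. Hmmr, a spindle protein first known as a hyaluronan receptor, had 253, 205, 222 and 174 footprint CPM in KO cultures 1 to 4, against 48.3, 146, 183 and 214 in WT cultures 1 to 4. Hmmr RNA amounted to 19.5, 79.3, 21 and 16.6 CPM in KO cultures 1 to 4, against 6.29, 57, 21.1 and 22.1 CPM in WT cultures 1 to 4. Its groups overlapped in both assays, with both replicate 2 libraries high in RNA. Ect2, the exchange factor that activates RhoA for cytokinesis, had 217, 211, 209 and 221 footprint CPM in KO cultures 1 to 4, against 46.9, 203, 186 and 224 in WT cultures 1 to 4. The KO cultures of Ect2 were alike in footprints and WT cultures 2 to 4 lay close around them.

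The promoters of the 54 genes were searched for the letters of 2 elements known from promoters of G2 and mitosis genes: TTTGAA, the CHR element bound by the DREAM and MYB-MuvB complexes, and CCAAT, the box bound by NF-Y. RefSeq promoter windows (GRCm38.p6, the assembly of mm10) of 250 bases before to 50 after the start were matched for 45 of the 54 genes, and both strands were read. TTTGAA was in a window of 34 of 45 genes (75.6%), against 20.2% of all 27025 genes with a window and 13.3% of those tested in RNA. Within 50 bases of the start it was in 30 of 45 (66.7%), against 5.72% and 3.53%. CCAAT was in 34 of 45 (75.6%), against 41.1% and 43.6%, and both were in 30 of 45 (66.7%), against 7.97% and 5.65%. The 2 strings can share at most their end base.

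One promoter each of 6 genes with TTTGAA close to the start is printed here, one from each of 6 roles, from the bases just before the annotated start; capitals mark TTTGAA or its reverse complement TTCAAA, and CCAAT or its reverse complement ATTGG. They are shown so that the place of both strings can be compared between roles. Cdk1 is at chr10:69352913-69353032 on the minus strand, Ube2c at chr2:164769809-164769928 on the plus strand, Kif11 at chr19:37376262-37376381 on the plus strand, Bub3 at chr7:131560250-131560366 on the plus strand, Top2a at chr11:99024200-99024309 on the minus strand and Ckap2l at chr2:129297229-129297332 on the minus strand. All 6 were picked for TTTGAA in the 50 bases before the start, so that its presence in each follows from the choice. Bub3 has 2 promoter entries, of which one that met this rule is printed.
Cdk1: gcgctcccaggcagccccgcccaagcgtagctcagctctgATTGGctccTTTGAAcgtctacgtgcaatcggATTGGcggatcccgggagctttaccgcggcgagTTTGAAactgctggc
Ube2c: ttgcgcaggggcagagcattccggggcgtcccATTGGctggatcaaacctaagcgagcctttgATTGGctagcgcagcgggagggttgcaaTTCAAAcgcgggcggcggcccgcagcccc
Kif11: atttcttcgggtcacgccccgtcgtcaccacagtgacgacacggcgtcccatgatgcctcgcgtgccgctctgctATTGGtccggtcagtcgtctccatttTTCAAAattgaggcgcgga
Bub3: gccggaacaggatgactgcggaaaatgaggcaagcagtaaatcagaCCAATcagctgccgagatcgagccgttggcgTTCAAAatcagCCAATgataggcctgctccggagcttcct
Top2a: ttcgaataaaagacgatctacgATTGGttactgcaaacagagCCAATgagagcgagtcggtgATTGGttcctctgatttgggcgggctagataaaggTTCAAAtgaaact
Ckap2l: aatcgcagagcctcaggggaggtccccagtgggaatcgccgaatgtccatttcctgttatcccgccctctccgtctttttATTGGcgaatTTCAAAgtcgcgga

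Genes with and without TTTGAA were both low in WT culture 1. Their level in footprints was 4.08-fold lower there than the mean of WT cultures 2 to 4 in the median of the 34 genes with it, and 3.42-fold lower in the median of the 11 genes without it. In RNA these medians were 4.74-fold and 4.49-fold, and the genes without it include Pttg1 as well as Cenpe. A match of letters is a description of the window, and no test was made of it.

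Further genes of the pathway were read from lists of the same kind. Of 129 further genes tested in footprints and 128 in RNA, which include kinetochore, spindle, condensin, cohesin, anaphase-promoting complex, regulatory and S phase genes, edgeR called 0 in either assay, as did DESeq2 and limma-voom, and 1 in footprints and 0 in RNA had an unadjusted p below 0.05. The 19 other spindle, kinesin and cytokinesis genes had a median log2 fold change of 0.40 in footprints and 0.31 in RNA, and the 24 other kinetochore and centromere genes 0.31 and 0.29. In footprints all 37 S phase genes were positive, with a median of 0.29. The 14 genes listed for the anaphase-promoting complex, which is present throughout the cell cycle, were near the median of all genes. They include Fzr1 and Ube2s beside subunits of the complex. Of the 14, 8 were positive in each assay, with medians of 0.01 in footprints and 0.03 in RNA. Their mean log2 CPM in footprints was 6.46 to 6.53 in the KO cultures, against 6.23 in WT culture 1 and 6.42 to 6.60 in the other WT cultures. Without WT culture 1 the medians in footprints were 0.09 for the other spindle genes, 0.08 for the other kinetochore genes and 0.02 for the S phase genes. Relative to RNA, footprints of the other kinetochore genes were 1.06 above the median of all genes, those of the other spindle genes 0.22 and those of the anaphase-promoting complex -0.24.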

How the data were processed

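Ribosome footprints and cytoplasmic RNA were sequenced from 8 cultures, each lysate giving a library of either kind (16 libraries). Estimated counts per gene and TPM were deposited by the authors, with cutadapt 1.7.1, Bowtie2 2.1.0, TopHat2 2.0.9, bedtools 2.22.0, RSEM 1.2.11 and the mm10 build named in the submitters' processing notes. RSEM divides reads that map to several genes, so counts of close paralogs are uncertain. The deposited TPM values are rounded to whole numbers and were treated as a score on the TPM scale. How molecular identifiers were collapsed and whether counting used strand is not given in the sources used here. Of 20436 table entries, 27 had a bare number for a name (0.244 to 0.422% of a library's counts) and were left out.

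Counts were tested with edgeR 4.0.16 in R 4.3.3 (TMM scaling within each assay, filterByExpr, quasi-likelihood F-test, Benjamini-Hochberg adjustment over all genes tested, threshold 0.05). Footprints were fitted with a term for the identifier length, TE as the assay by genotype interaction over 16 libraries, and footprints against RNA with the culture as a block. Log2 CPM used a prior count of 2. Alternatives were DESeq2 1.42.0, voom and limma-trend in limma 3.58.1 on log2(TPM + pseudocount), other scaling, no filter, the omission of each library, a replicate block and replicates 1 and 2 or 3 and 4 alone. The fits were also tested on simulated data. P-values measure the spread between these cultures.

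Replicate numbers were checked for pairing. Deviations from the group means correlated at 0.481 to 0.613 in RNA and 0.379 to 0.54 in footprints between KO and WT libraries of the same number, above 0.1 in every pair, and at -0.542 to 0.368 and -0.456 to 0.453 between other numbers, so counts and medians of a fit blocked on replicate number are given for the 54 genes; it changed no call among them. No libraries were identical.

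The members and all gene lists were chosen with earlier results of these data known. The genes named with values were the 2 with the highest mean RNA TPM in each role, every gene of the passenger complex, condensin and chromosome structure, the 3 largest positive and negative changes of each genotype comparison and the 3 highest and lowest footprint ratios. Pttg1, Cdc25b, Bub1, Bub1b, Ttk, Aurka, Aurkb, Kif18b, Ndc80 and Spc24 fall outside that rule and were named after their values were seen. Promoter sequences came from RefSeq (GRCm38.p6).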

Additional observations from a re-analysis of the deposited data

Results flagged for a closer look

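Of 152 groups of 4 libraries examined, 33 held a library that lay far from the other 3 by Dixon's test, where chance flags about 1 in 20. Most were WT culture 1. The mean log2 CPM over the 54 genes there was 5.42 in footprints (7.16 to 7.49 in the other WT cultures) and 4.35 in RNA (6.35 to 6.42). By role it was 5.01 in footprints and 4.45 in RNA for the kinases, 3.40 in RNA for the kinetochore and checkpoint genes, and in footprints 5.28 for the kinesins, 4.90 for the passenger complex, 5.88 for condensin, 8.09 for chromosome structure and 5.94 for the spindle and cytokinesis genes.

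Single genes set apart in footprints of WT culture 1 were Ube2c at 51.6 CPM, Kif20a at 62.2, Incenp at 41.1, Birc5 at 15, Smc2 at 94.5, Ncapd2 at 60.4, Ncapg at 23.9, Top2a at 322, Prc1 at 71.4, Cenpe at 69.6, Cenpf at 217.5, Kif20b at 32.1, Ect2 at 46.9, Espl1 at 21.8 and Kif18a at 40.5 CPM. In RNA they were Ccna2 at 49.3 and Tpx2 at 67.8 CPM. All of these were low. These flags share 2 libraries of 1 culture and are not independent of each other.

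RNA of KO culture 2 was set apart and high for the kinesins, with a mean log2 CPM of 6.72 (5.77 to 5.87 in the other KO cultures), and for Cenpf at 601 CPM (33.4 to 46.2), Kif20b at 60.1 CPM (6.09 to 6.86) and Hmmr at 79.3 CPM (16.6 to 21.0). In footprints Plk1 was low in KO culture 1, at 194 CPM (243 to 247.5 in the other KO cultures), and Cdca8 was low in KO culture 2, at 176 CPM (219 to 223).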

How the results depend on the processing

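No gene of the 54 passed the test for a difference between KO and WT in footprints, RNA or TE under any alternative run. In RNA DESeq2 gave no adjusted p-value for some genes, Smc4 and Cenpf among them. The count over all genes was small and moved. In RNA edgeR called 1 gene, against 20 with DESeq2, 2 with limma-trend on log2(TPM + 1), 0 with limma-voom, 0 with the replicate block, 0 with the block without pair 1, 0 in replicates 1 and 2 alone, 0 in replicates 3 and 4 alone, and 0 to 1 when single libraries were left out. In footprints it called 4, against 82 with DESeq2, 0 with the replicate block, 0 with the block without pair 1, 0 in replicates 1 and 2 alone, 2 in replicates 3 and 4 alone, and 0 to 14 when single libraries were left out, with 14 reached without KO culture 4. The cause was not tested.

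The replicate block gave median log2 fold changes of 0.56 in footprints and 0.56 in RNA over the 54 genes and changed no call among them. None of the fold changes that turned round passed the test with all cultures or under the alternative. When single libraries were left out, the RNA fold change ran from -0.64 to 1.39 for Smc2, -0.52 to 1.71 for Smc4, -0.43 to 0.79 for Ncapg, -0.35 to 2.34 for Cenpe and -0.45 to 2.38 for Cenpf, each lowest without KO culture 2 and highest without WT culture 2. It ran from -0.032 to 0.74 for Plk1, -0.16 to 0.61 for Ube2c, -0.083 to 0.38 for Bub3 and -0.089 to 0.42 for Ncaph, each lowest without WT culture 1. Bub3 was also below 0 without KO culture 4 (-0.011) and Ncapg without WT culture 1 (-0.15). In footprints it ran from -0.069 to 0.84 for Ube2c, -0.044 to 0.62 for Smc4 and -0.063 to 0.76 for Ncapg, each lowest without WT culture 1. The TE change ran from -1.80 to 0.61 for Cenpf, -1.54 to 0.76 for Cenpe and -1.32 to 0.71 for Kif20b, each highest without KO culture 2, and from -0.18 to 0.62 for Cdca3 and -0.25 to 1.06 for Hmmr.

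With the block without pair 1, RNA fold changes were -0.013 for Ube2c and -0.024 for Ncaph, and footprint fold changes -0.040 for Ube2c, -0.10 for Smc4 and -0.044 for Ncapg. In replicates 3 and 4 alone, RNA fold changes were -0.054 for Plk1, -0.20 for Ube2c, -0.052 for Kif20a, -0.088 for Smc2, -0.14 for Ncapg, -0.079 for Ncaph, -0.027 for Prc1 and -0.0008 for Cenpf, and footprint fold changes -0.041 for Ccna2, -0.0034 for Kif20a, -0.0012 for Birc5, -0.0013 for Smc2, -0.032 for Smc4, -0.097 for Ncapg, -0.0099 for Ncaph and -0.017 for Tpx2. The TE change of Cdca3 was -0.048 with limma-voom, -0.062 with the replicate block, -0.14 with the block without pair 1, -0.014 in replicates 3 and 4 alone and -0.049 with a culture block. RNA depth limits genes such as Kif20b most, whose lowest count was 12.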
